A study of Homo sapiens with 12 samples.

Results

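The genes described are those that encode SR proteins, hnRNPs and protein subunits of the spliceosome, measured in 3-dimensional cultures of a human mammary epithelial cell line. They were taken as every array probe set annotated with exactly 1 gene symbol that starts with SRSF, HNRNP, SF3A, SF3B, SNRP, U2AF or PRPF, or that equals TRA2A, TRA2B or PNISR, with SNRPN left out. This gave 133 probe sets for 61 genes, of 11963 genes measured in all, and each gene was represented by its brightest probe set over the 12 arrays. The 61 genes comprised 12 SR and SR-like proteins, 19 hnRNPs, 10 subunits of SF3A, SF3B and U2AF, 11 SNRP proteins and 9 PRPF proteins. A total of 60 of them lay above the median gene level, so the low-intensity end of the array concerned only the pseudogene HNRNPA3P1.

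HMT-3522 S1 is an established non-neoplastic human mammary line that forms acini, hollow spheres of a single cell layer, in laminin-rich gel. Cells at passage 55 to 60 were cultured with 5% Matrigel for 10 days, with EGF in the medium for 8 days and without it for the last 48 hours. The 3 groups of 4 arrays were vehicle, labelled as apically polarized, and cultures given either AGA (18α-glycerrhitinic acid in the labels), a blocker of gap junctions, or Aza (5-aza-2' deoxycytidine), which blocks the enzymes that methylate DNA, both labelled as not polarized. Each drug was given at 10 µM from the day of plating, renewed every 2 days for 10 days. All cultures were of this 1 cell line, and nothing in the labels says how separate the 4 cultures of a group were, so p-values measure the spread between these samples.

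Introns are removed from pre-mRNA by the spliceosome, which is built from small nuclear ribonucleoproteins, most of them a small RNA with a ring of Sm proteins and particle-specific proteins. U2AF and the SF3A and SF3B complexes recognise the branch point and 3' splice site, PRPF proteins belong mostly to the U4/U6.U5 tri-snRNP and to the Prp19 complex, and SR proteins and hnRNPs bind exons and introns and favour or hinder the use of nearby splice sites. Many SR protein and hnRNP transcripts carry alternative exons that send them to nonsense-mediated decay, through which these proteins control their own amounts. An array probe set near the 3' end reads the summed transcripts that reach it, and does not separate such isoforms.

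RefSeq promoters of assembly GRCh38.p14 were found for 54 of the 61 genes, 74 start sites in all, and the 250 bases before each start were read. Median GC content was 61.8%, against 58.0% over 35116 promoters, and the observed over expected CpG ratio exceeded 0.6 in 68 of 74 (91.9%), against 47.5% of all. The upstream sequences below belong to the genes on which the results turn: PNISR, SRSF11 and SRSF5, high in 1 set of cultures, TRA2B, low in the same cultures, and HNRNPA2B1, which differed between treatments. They are written 5′ to 3′ on the gene's own strand. Capitals mark, on either strand, the letters CCGGAAG (ETS factors), TGACG (a CRE half-site), TATAAA (the letters of a TATA box) and CCAAT (those of a CCAAT box). PNISR is on the minus strand at chr6:99425309-99425558, SRSF11 has 2 starts on the plus strand at chr1:70205446-70205695 and chr1:70221130-70221379, and SRSF5 is on the plus strand at chr14:69766892-69767141. TRA2B is on the minus strand at chr3:185938015-185938264 and HNRNPA2B1 on the minus strand at chr7:26200747-26200996.
PNISR: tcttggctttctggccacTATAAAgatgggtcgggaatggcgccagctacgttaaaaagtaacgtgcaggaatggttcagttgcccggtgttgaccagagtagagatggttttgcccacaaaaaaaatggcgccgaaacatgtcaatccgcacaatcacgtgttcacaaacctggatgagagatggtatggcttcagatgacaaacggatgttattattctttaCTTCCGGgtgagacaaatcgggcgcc
SRSF11, upstream start: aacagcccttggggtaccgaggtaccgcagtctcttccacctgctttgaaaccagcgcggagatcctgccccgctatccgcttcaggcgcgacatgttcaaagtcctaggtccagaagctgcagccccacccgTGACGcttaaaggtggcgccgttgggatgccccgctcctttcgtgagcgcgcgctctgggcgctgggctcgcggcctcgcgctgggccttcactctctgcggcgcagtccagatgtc
SRSF11, downstream start: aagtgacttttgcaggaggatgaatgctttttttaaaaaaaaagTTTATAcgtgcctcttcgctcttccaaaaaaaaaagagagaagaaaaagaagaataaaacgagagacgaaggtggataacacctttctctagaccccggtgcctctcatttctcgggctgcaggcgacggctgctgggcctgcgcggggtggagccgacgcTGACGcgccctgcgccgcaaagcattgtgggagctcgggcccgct
SRSF5: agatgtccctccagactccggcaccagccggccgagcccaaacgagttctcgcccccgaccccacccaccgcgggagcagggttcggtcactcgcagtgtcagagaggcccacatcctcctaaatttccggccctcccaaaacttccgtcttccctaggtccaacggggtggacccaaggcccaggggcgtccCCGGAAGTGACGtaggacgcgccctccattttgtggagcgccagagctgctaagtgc
TRA2B: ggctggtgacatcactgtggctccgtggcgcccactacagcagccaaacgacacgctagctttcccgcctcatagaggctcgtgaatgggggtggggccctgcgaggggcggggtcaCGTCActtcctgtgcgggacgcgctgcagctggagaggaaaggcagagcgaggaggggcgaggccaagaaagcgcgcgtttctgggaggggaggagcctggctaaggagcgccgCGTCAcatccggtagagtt
HNRNPA2B1: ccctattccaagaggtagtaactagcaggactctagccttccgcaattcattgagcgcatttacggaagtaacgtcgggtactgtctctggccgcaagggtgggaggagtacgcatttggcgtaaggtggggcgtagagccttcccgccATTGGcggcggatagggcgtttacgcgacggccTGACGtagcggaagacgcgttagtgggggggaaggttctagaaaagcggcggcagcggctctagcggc

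The ETS letters stood in 22 of the 74 promoters (29.7%), against 8.52% of all promoters, and among the printed ones in PNISR and SRSF5. In SRSF5 they ran directly into a CRE half-site. The half-site was in 29 of 74 (39.2%), against 21.2% of all, and in each printed promoter except that of PNISR. The E-box letters CACGTG were in 12.2%, against 6.34% of all. The Sp1 letters GGGCGG were in 37 of the 74, against 42.6% of all. The TATAAA letters were in 10.8% against 10.7%, the CCAAT letters in 37.8% against 32.0%, and the letters GAANNTTC of a heat shock element in 6.76% against 5.78%. In PNISR and at the downstream SRSF11 start, TATAAA lay 232 and 206 bases before the start, in SRSF11 on the other strand. The full CRE, TGACGTCA, which contains the half-site, was in 0 of the 74 and in 1.65% of all. A match is a description of letters in this window, and promoters of the same gene overlap in part.

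The deposited median intensity per array ran from 23.3 to 35.9, and arrays were brought to 1 distribution before levels were compared. All levels below are log2 intensities after that step. Along the first principal component of the 61 genes (45.8% of their variance), the replicate 4 arrays of all 3 groups lay between 1.66 and 3.11 and the other 9 arrays between -1.67 and 0.45; replicate 4 stood apart over all probe sets as well. The ratio of 3' to 5' control probe sets, a sign of RNA integrity, was 1.58 to 1.64 (log2, ACTB) in replicate 4 and 1.26 to 1.80 in the others, and for GAPDH 0.194 to 0.229 against 0.216 to 0.464. The basal keratins KRT5 and KRT14 were bright on the arrays (mean log2 12.39 and 12.37), the luminal keratins KRT8 and KRT18 were at 7.40 and 7.94, above the median gene (5.39), whereas the luminal keratin KRT19 was at the floor on all 12 and EPCAM was near it (1.47). Of the fibroblast, leukocyte, and endothelial and adipocyte markers, 7 of 8, 6 of 6 and 7 of 8 lay below the median gene, and the summed intensity of each of these lists in replicate 4 (237.9 to 277.6, 52.2 to 69.9 and 211.4 to 270.3) overlapped that of the other arrays (148.7 to 291.8, 27.9 to 68.9 and 180.1 to 399.5).

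Across the replicate numbers, PNISR and SRSF11 had the largest differences of the 61 genes. PNISR and SRSF5 were higher in replicate 4 than in replicates 1 to 3, by 2.16-fold and 1.60-fold, and TRA2B was lower, by 1.69-fold. SRSF11, SRSF4, SRSF10 and SRSF6 also had all 3 replicate 4 arrays above the other 9 without passing the test. Of genes above the median level, 14.2% had replicate 4 wholly above in this way. Values above 0 were found in 7 of 12 SR proteins, 14 of 19 hnRNPs, 8 of 10 SF3 and U2AF subunits, 7 of 11 SNRP proteins and 6 of 9 PRPF proteins. Over all genes 51.2% were above 0, and the SR and SNRP proteins (58.3% and 63.6%) lay nearest that share. The comparison takes the mean of the vehicle, AGA and Aza arrays of each replicate number, so that 1 number is set against 3. The labels do not say what separates replicate 4, and an exact permutation test of 1 against 3 could not go below p = 0.25. Replicate 4 was already known to stand apart on these same arrays when it was set against the others. The p-values of this comparison do not allow for that choice.

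PNISR encodes a nuclear protein rich in serine and arginine that lies with splicing factors in nuclear speckles. Its level was 7.79, 8.09, 7.98 and 9.12 in vehicle replicates 1 to 4, 7.71, 7.87, 7.87 and 9.03 in AGA, and 7.90, 8.34, 8.02 and 9.04 in Aza. The replicate 4 arrays were the highest in each group and lay above all other arrays. The mean of replicate 4 was 9.06, against 7.95 ± 0.15 (SD, n = 3 replicate numbers), a difference of 1.11 ± 0.19 (SE; limma adjusted p = 0.0155). Its other 2 probe sets differed by 1.32 and 1.89 and passed too (limma adjusted p = 0.0124 and 0.0091).

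SRSF11 (p54) is a serine and arginine rich nuclear protein that associates with U2AF. Its brightest probe set read 9.81, 10.23, 10.41 and 11.36 in vehicle, 9.65, 10.02, 9.89 and 10.86 in AGA, and 9.02, 10.53, 10.59 and 11.00 in Aza, for replicates 1 to 4. All 3 replicate 4 arrays were above the other 9, although replicates 1 to 3 ranged widely, above all in Aza. The difference was 1.06 ± 0.29 (SE) and did not pass (limma adjusted p = 0.0994). A second probe set differed by 1.10 and passed (limma adjusted p = 0.0160), and another by 0.57 (0.222).

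SRSF5 encodes an SR protein that binds exonic enhancers. It stood at 10.10, 10.15, 10.51 and 11.00 in vehicle, 10.03, 10.45, 10.30 and 10.79 in AGA, and 10.14, 10.46, 10.26 and 11.04 in Aza. Replicate 4 again lay above every other array, with a difference of 0.68 ± 0.15 (SE; limma adjusted p = 0.0489). Its other probe sets, at 0.54 and 1.58, went the same way without passing (0.115 and 0.106). SRSF4, also an SR protein, was at 8.04, 8.03, 7.92 and 8.68 in vehicle, 7.83, 7.81, 7.92 and 8.47 in AGA, and 7.69, 7.90, 7.85 and 8.63 in Aza. Replicates 1 to 3 agreed closely (SD 0.03 of their means), and the difference of 0.70 ± 0.17 (SE) narrowly missed the threshold (limma adjusted p = 0.0591).

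TRA2B, an SR-like regulator that binds GAA-rich exons and whose transcript carries a self-regulated poison exon, moved the other way. It read 10.03, 9.80, 10.09 and 9.32 in vehicle, 9.76, 9.56, 9.99 and 9.34 in AGA, and 9.90, 9.83, 10.09 and 8.75 in Aza. The replicate 4 arrays were the 3 lowest of the 12, with a difference of -0.76 ± 0.17 (SE; limma adjusted p = 0.0470). Its other probe sets were at -0.38 and -0.57 and did not pass. Its paralogue TRA2A differed by 0.24.

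Of the 61 genes, 2 were called higher and 1 lower (limma), where 1.43% and 2.63% of all genes were; among genes above the median level those shares were 2.56% and 3.96%. At an unadjusted p under 0.05 there were 19 higher and 3 lower, and 20.7% of all genes were below that p in either direction (1107 higher and 1367 lower of 11963). Here and in the treatment comparisons, that share was not taken among genes above the median level, where 60 of the 61 lay. The 3 replicate 4 arrays lay above all 9 others for 17 of the 61 (27.9%; 8.48% of all genes, 14.2% of those above the median level) and below for 8 (13.1%; 8.69% and 15.1%). By role, 6 of 12 SR proteins, 4 of 19 hnRNPs, 1 of 10 SF3 and U2AF subunits, 2 of 11 SNRP proteins and 4 of 9 PRPF proteins had replicate 4 wholly above. The difference was above 0 in 42 genes, or 68.9%, against 51.2% of all genes, and the median was 0.24, against 0.02 over all genes and -0.01 over genes above the median level. On the deposited scale without normalization, 35 were above 0 and the median was 0.08, where all genes had -0.09. All probe sets of a gene had the same sign in 28 of the 38 genes with several.

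Among the other named members, PRPF6, a bridging protein of the tri-snRNP, was at 7.51, 7.72, 7.84 and 8.23 in vehicle, 7.56, 7.79, 7.60 and 8.15 in AGA and 7.46, 7.52, 7.51 and 8.48 in Aza. Replicate 4 was above all others, by 0.67 ± 0.18 (SE; limma adjusted p = 0.0798). HNRNPH1, a G-run binding hnRNP, was higher by 0.43 (0.0817), also without overlap. Below 0 were PRPF18, a second-step factor, at -0.69 (limma adjusted p = 0.126), PRPF4, a tri-snRNP protein, at -0.49 (0.277), SNRPG, an Sm ring protein, at -0.42 (0.198), and HNRNPF at -0.40 (0.273). In these 4 genes, too, replicate 4 lay wholly below the other arrays. PRPF39 (0.71, limma adjusted p = 0.139; all replicate 4 arrays above the others) and HNRNPA3P1 (0.80), near the floor, were outside the naming rule and were chosen after their values were seen, because their differences exceeded that of SRSF5. The Sm proteins SNRPG, SNRPD1 and SNRPD3 were lower and SNRPE and SNRPF higher in value, so the subunits of the ring did not share 1 direction.

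**Figure D1:**
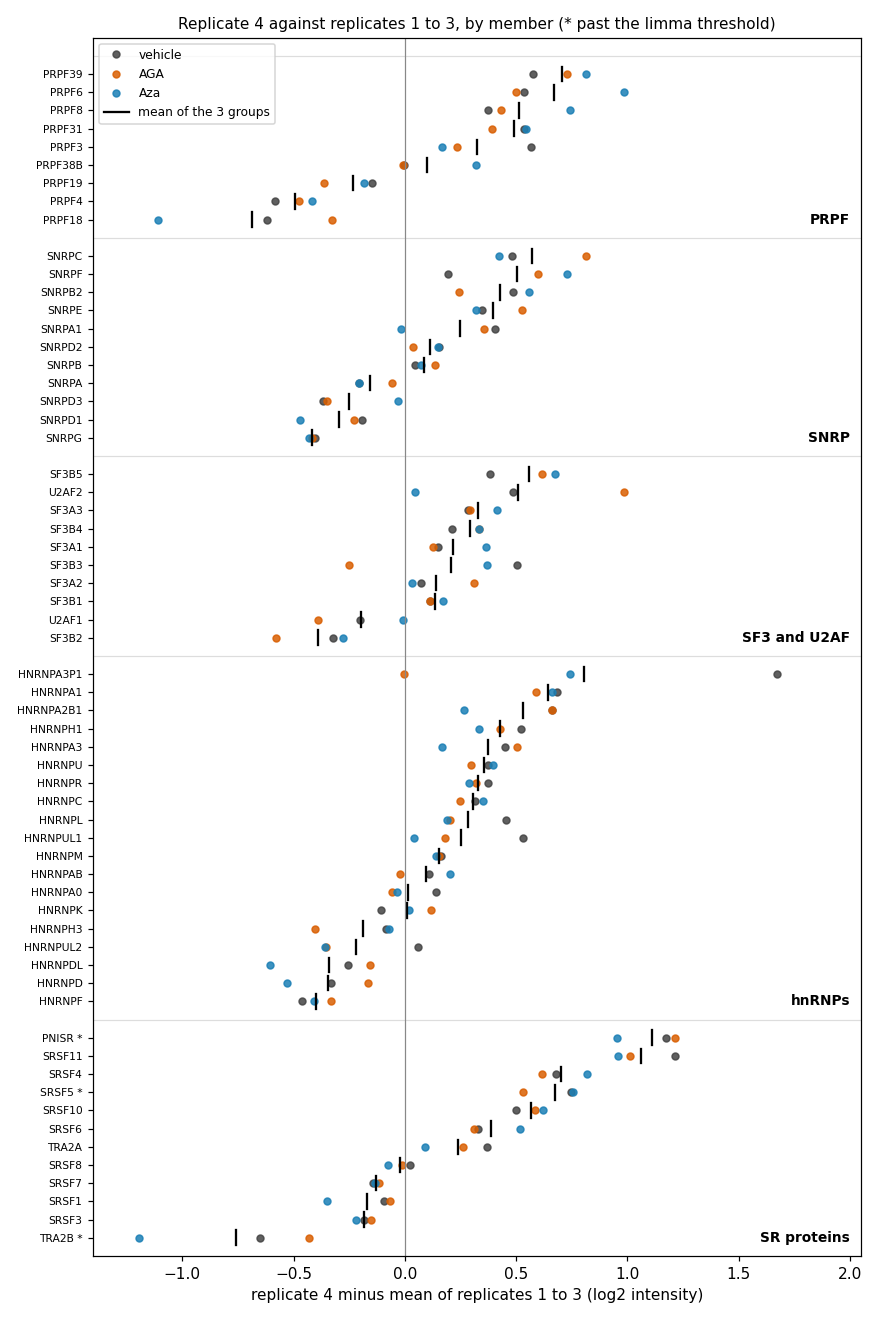
Difference of replicate 4 from the mean of replicates 1 to 3 (log2 intensity, horizontal) for each of the 61 genes, by role; points are the vehicle, AGA and Aza cultures and the black bar is their mean. PNISR (1.11) and SRSF11 (1.06) had the highest means with all 3 points near 1, TRA2B (-0.76) had the lowest, and stars mark the 3 genes past the limma threshold.

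These 3 calls rested on few degrees of freedom. Leaving out any of replicates 1, 2 or 3 left 0 calls among the 61 genes (PNISR adjusted p 0.129 to 0.144, limma), as did a floor of 16 on the intensities (0.0895) and a fit without the intensity trend and robust variances (0.297), in which no probe set of the array passed. Treating the 12 arrays as separate samples called 22 higher and 8 lower, where 9.4% and 11.2% of all genes were called (16.7% and 18.8% of those above the median level); with replicate number as a random block it was 20 and 6, against 7.22% and 8.9% of all genes. SRSF5 was not called without the vehicle arrays (adjusted p = 0.0995, limma) or without the Aza arrays (0.0929), nor was TRA2B (0.0646 and 0.184), whereas PNISR was called without any 1 of the 3 groups (0.0166 to 0.0312). SRSF11 was called without the Aza arrays (0.0216, limma).

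Of 25 SR-related proteins outside the family names, 23 were above 0, with a median of 0.39, and 3 were called higher: RSRP1 (1.40, limma adjusted p = 0.00804), CCNL2, a cyclin of nuclear speckles (1.00, 0.0254), and SRRM1, a coactivator of exon-bound SR proteins (0.95, 0.0219). Of 31 other spliceosome proteins, 23 were above 0 and CDC40, a second-step factor, was called (0.80, limma adjusted p = 0.0497). Of 28 other splicing regulators, CIRBP (0.97, 0.0194), a cold-inducible RNA-binding protein, and MBNL2 (0.81, 0.0384) were called higher. GEMIN6 of the SMN complex, which assembles Sm rings, was called lower (-0.86, limma adjusted p = 0.0466). Of the 8 SR protein kinases, which phosphorylate the arginine and serine repeats, 0 were called by limma and 5 were above 0. The 9 LSm proteins (median 0.11), 14 cleavage and polyadenylation factors (0.07) and 15 exon junction, export and decay factors (0.12) had 0 calls each. The calls in this paragraph and the next came from the same fit of 1 replicate number against 3. In that fit 1.43% of all genes were called higher and 2.63% lower (2.56% and 3.96% of those above the median level). Values above 0 were found in 51.2% of all genes. Without the intensity trend and robust variances no probe set of the array passed.

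Genes outside RNA processing also differed in these cultures. All 14 immediate early genes, which respond to growth factors and to handling within minutes, were below 0 in replicate 4 (median -1.49), and EGR1 was called (-3.01, limma adjusted p = 0.0109). Of 8 heat shock genes, HSP90AB1 was called higher (0.60, 0.0450) and BAG3 lower (-0.84, 0.0493), and CDH1, the epithelial cadherin, was called lower (-1.34, 0.0366). CDH1 was the 1 call among the 8 mammary epithelial markers measured, of which 4 were above 0 and 3 below, with a median of 0.13. The part of all these genes in the splicing gene values was not tested. The 3 nuclear-retained noncoding RNAs measured were all below 0, with 1 of them above the median gene level.

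**Figure D2:**
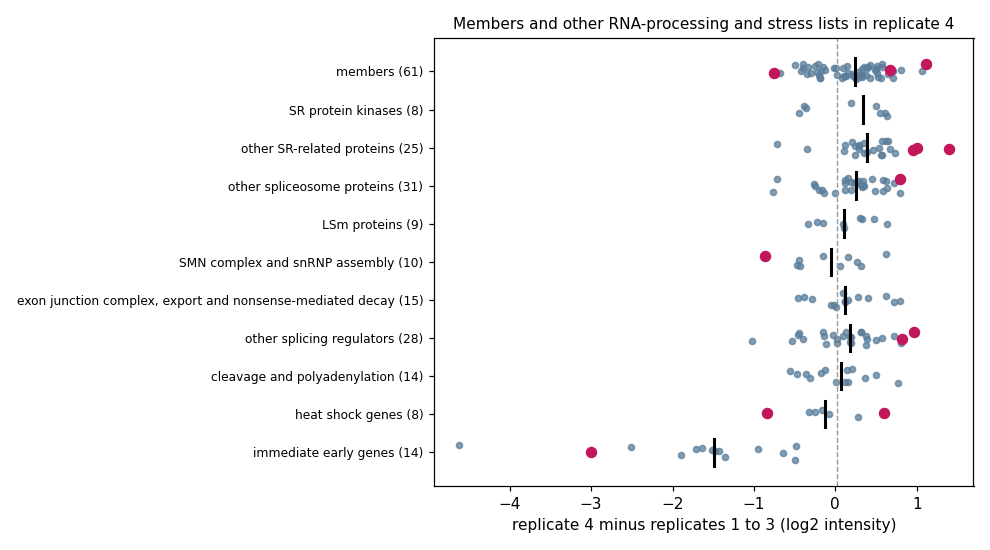
Difference of replicate 4 from replicates 1 to 3 (log2 intensity) for the 61 genes and 10 lists of other genes, 1 point per gene, with numbers of genes in brackets; black bars are medians, large red points passed limma, and the dashed line is the median of all genes (0.02). The SR-related proteins have their median at 0.39 and the immediate early genes at -1.49.

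The comparison of AGA with vehicle asks which of these transcripts differ in acini formed while gap junctions are blocked. HNRNPA2B1 was the 1 member called on its brightest probe set, lower by 1.30-fold, and the call depended on the fit. The hnRNPs had mostly lower values, 15 of 19 below 0, and the SR proteins 9 of 12, whereas 6 of 11 SNRP proteins were above 0; in all, 16 of the 61 (26.2%) were above 0, against 51.5% of all genes. These signs depend on scaling: on the deposited scale 0 of the 61 were above 0, and the median over all genes was itself -0.24. The member median less that of all genes was -0.060 after normalization and -0.066 on the deposited scale.

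HNRNPA2B1 encodes an abundant hnRNP that binds UAG-containing RNA and takes part in splicing, export and microRNA processing. It was at 10.26, 9.71, 10.18 and 10.71 in vehicle replicates 1 to 4 and at 9.91, 9.38, 9.73 and 10.33 in AGA. Each AGA array was below the vehicle array of the same number, while the groups overlapped because the replicates differed by more than the treatment did. With replicate number as a block the difference was -0.38 ± 0.08 (SE, n = 4; limma adjusted p = 0.0419). Only 1 probe set measures it. The call was lost without the block, where the adjusted p was 1 and no gene of the array was called by limma. It was also lost without the intensity trend and robust variances (0.449), with median-centred arrays (0.125), with a floor of 16 (0.242), with each gene's probe sets averaged (0.0796), without any 1 replicate number (0.0674 to 0.275), and without any 1 of vehicle 1 to 4, AGA 1 to 3 or Aza 1 and 2 (0.0579 to 0.205); it held without AGA 4, Aza 3 or Aza 4 (0.0161 to 0.0455).

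Members called were 0 higher and 1 lower by limma, where 0.41% and 0.351% of all genes were called. At an unadjusted p under 0.05 there were 3 higher and 8 lower, and 12.9% of all genes were below that p in either direction (813 higher and 727 lower of 11963). The median difference was -0.05, against 0.01 over all genes. AGA was lower in all 4 pairs for 13 of the 61 and higher for 4, against 9.14% and 10.4% of all genes. Among genes above the median level those shares were 12% and 14.2%. Of the 13, 8 were hnRNPs, and the 4 were SNRP proteins.

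Next by p were further hnRNPs, none past the threshold. HNRNPK, which binds C-rich RNA, was the 1 member whose groups did not overlap (1.27% of all genes were lower in this way). It was 10.52, 10.60, 10.48 and 10.43 in vehicle and 10.34, 10.33, 9.99 and 10.34 in AGA, with replicate 3 far below the rest of the AGA group. The difference was -0.25 ± 0.07 (SE; limma adjusted p = 0.148), and -0.30 (0.0929) in its second probe set. HNRNPA3 was 8.59, 9.21, 9.04 and 9.40 in vehicle and 8.50, 8.54, 8.55 and 9.04 in AGA, a difference of -0.40 ± 0.11 (SE; limma adjusted p = 0.112). HNRNPR (-0.26, limma adjusted p = 0.140) and HNRNPH1 (-0.20, 0.164) were lower in value in 4 of 4 pairs as well.

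Among SR proteins, SRSF11 was lower in value in 4 of 4 pairs, by -0.35 ± 0.19 (SE; limma adjusted p = 0.518), and its second probe set was called (-0.55, 0.0408). PNISR was at -0.13 (limma adjusted p = 0.666) and lower in 4 of 4 pairs. A dimmer probe set of HNRNPD, which binds AU-rich elements, was also called lower (-0.74, limma adjusted p = 0.0432), while its brightest one was at -0.10. Above 0 were the Sm proteins SNRPB (0.23 ± 0.08, SE; limma adjusted p = 0.207) and SNRPD2 (0.16, 0.262), both in 4 of 4 pairs, with SF3B5 (0.20, 0.356), HNRNPA1 (0.13, 0.483) and PRPF19 (0.09, 0.808). All 5 were at or below 0 on the deposited scale.

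SNRPB encodes the Sm proteins B and B', whose transcript is itself regulated through an alternative exon. It stood at 9.26, 9.15, 9.55 and 9.36 in vehicle and 9.50, 9.32, 9.76 and 9.66 in AGA. Each AGA array was above its vehicle partner, and the groups overlapped. SNRPD2 was 11.15, 11.45, 11.57 and 11.54 in vehicle and 11.48, 11.61, 11.64 and 11.61 in AGA, where the lowest vehicle array, replicate 1, made the widest pair.

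In the lists of other genes, CLK1, a kinase of SR proteins, was called lower in AGA (-0.43 ± 0.08, SE; limma adjusted p = 0.0244). RBM8A, the exon junction protein Y14, was lower too (-0.47, 0.0230), as was PCF11, a transcript cleavage factor (-0.46, 0.0483). NUDT21, the small subunit of cleavage factor I, was called higher (0.55, 0.0483). No other gene of the RNA-processing lists was called by limma in this comparison, where 0.41% of all genes were called higher and 0.351% lower.

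**Figure D3:**
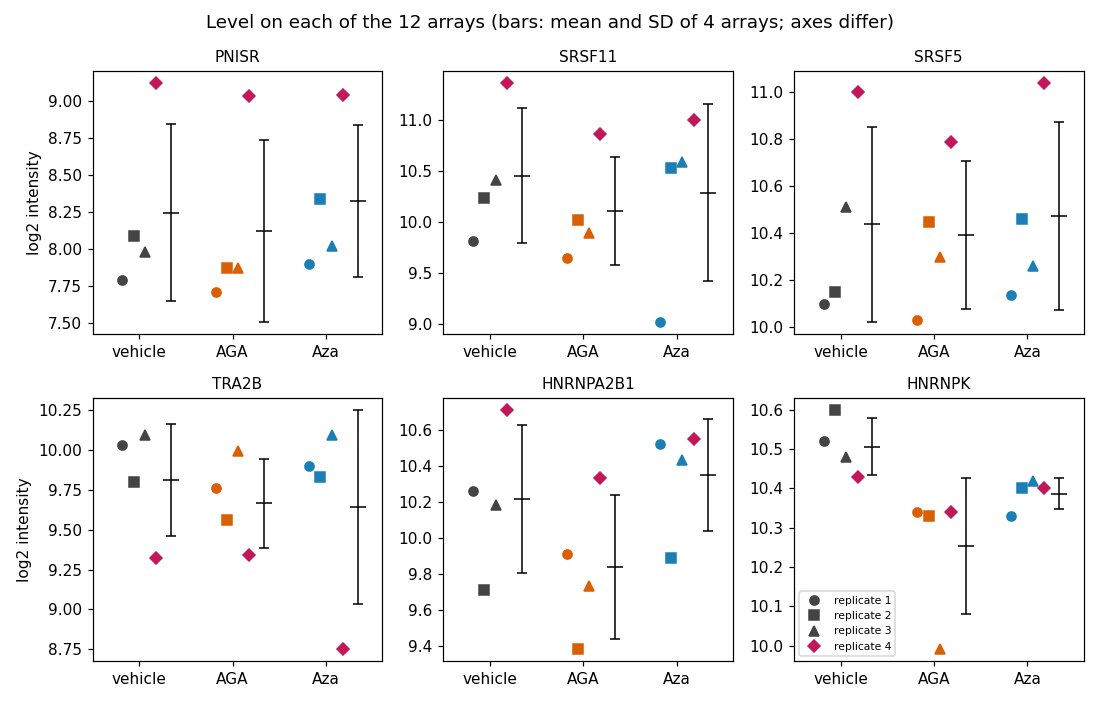
Log2 intensity of 6 genes on each of the 12 arrays, by group; symbols give the replicate number, replicate 4 is in red, and the bars are the mean and SD of 4 arrays. Replicate 4 is highest in PNISR, SRSF11 and SRSF5 and lowest in TRA2B, while HNRNPA2B1 is lower in AGA within each number and HNRNPK is lower in AGA than in vehicle without overlap.

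The comparison of Aza with vehicle asks which transcripts differ in acini formed under DNA methyltransferase inhibition. It shares the vehicle arrays with the AGA comparison. None of the 61 genes passed by limma (0.00836% of all genes did). At an unadjusted p under 0.05 there were 6 higher and 4 lower, with 7.02% of all genes below that p (459 higher and 381 lower of 11963). Signs were balanced, 33 above 0 (54.1%, against 50.3% of all genes) and 28 below, with a median of 0.03, against 0.0016 over all genes. HNRNPA2B1, which was called lower in AGA, was at 10.52, 9.89, 10.43 and 10.55 in Aza, a difference of 0.13 ± 0.08 (SE; limma adjusted p = 0.843).

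The SNRP proteins were above 0 in 10 of 11, with a median of 0.16. Of them, 6 were higher in all 4 pairs (8.24% of all genes were, and 10.3% of those above the median level). SNRPF, an Sm protein, was 8.11, 8.07, 8.51 and 8.42 in vehicle and 8.36, 8.08, 8.72 and 9.11 in Aza, a difference of 0.29 ± 0.11 (SE; limma adjusted p = 0.721). The groups overlapped, and replicate 4 held the widest pair. SNRPA, a protein of the U1 particle, differed by 0.23 (limma adjusted p = 0.766), SNRPD3 by 0.21 (0.735), SNRPG by 0.18 (0.679) and SNRPD2 by 0.17 (0.669), each in 4 of 4 pairs. On the deposited scale the median over the 61 genes was -0.05 and 20 were above 0, where all genes had a median of -0.06.

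Lower in value were U2AF2, the U2AF subunit that binds the polypyrimidine tract (-0.42 ± 0.15, SE; limma adjusted p = 0.685), and HNRNPC, which binds uridine tracts (-0.22 ± 0.07, SE; 0.611), both in 4 of 4 pairs. U2AF2 read 7.69, 7.62, 8.10 and 8.29 in vehicle and 7.05, 7.54, 7.87 and 7.53 in Aza. HNRNPC read 10.33, 10.48, 10.44 and 10.73 in vehicle and 9.95, 10.36, 10.27 and 10.54 in Aza. Both groups overlapped in each gene. HNRNPUL1 (-0.27, limma adjusted p = 0.727), HNRNPA3 (-0.26, 0.735) and PRPF19 (-0.21, 0.773) were lower in 3 of 4 pairs, and HNRNPK (-0.12, 0.854) was again the 1 member without overlap (0.802% of all genes were lower in this way). SRSF11 (-0.17, limma adjusted p = 0.933) changed sign without Aza 1 (0.07), and PNISR was at 0.08 (0.938).

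The direct comparison of Aza with AGA tests whether the treatments differ from each other. HNRNPA2B1 was higher in Aza than in AGA in 4 of 4 pairs, by 1.43-fold, a log2 difference of 0.51 ± 0.08 (SE; limma adjusted p = 0.00447). It was the 1 member called higher, where 0.552% of all genes were, and 0 were called lower (0.443%). At an unadjusted p under 0.05 there were 8 higher and 3 lower, with 11.9% of all genes below that p (700 higher and 726 lower of 11963). The call was lost without the replicate block (1), without the intensity trend and robust variances (0.288), with a floor of 16 (0.144), and without replicate 3 (0.0911); it held in the other 15 fits that left out an array or a replicate number.

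HNRNPR was 9.26, 9.17, 9.25 and 9.55 in AGA and 9.62, 9.34, 9.63 and 9.82 in Aza, a difference of 0.29 ± 0.07 (SE; limma adjusted p = 0.0814). It was higher in 4 of 4 pairs with overlapping groups, and its dimmer probe set was at -0.21. SNRPA (0.38, limma adjusted p = 0.148) and SRSF1, the founding SR protein (0.24, 0.240), were higher in value in 4 of 4 pairs. SRSF1 was at -0.14 when its 4 probe sets were averaged. HNRNPA3P1 had the widest difference, 1.48 ± 0.67 (SE; limma adjusted p = 0.423), at levels near the floor (0.31 to 3.84). The second SRSF11 probe set (0.58, limma adjusted p = 0.0194) and the dimmer HNRNPD one (0.85, 0.0162) were called, while the brightest SRSF11 probe set was at 0.18 (0.786) and PNISR at 0.20 (0.424).

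Lower in Aza than in AGA by value were PRPF19, the ubiquitin ligase of the Prp19 complex (-0.30 ± 0.10, SE; limma adjusted p = 0.255), HNRNPUL1 (-0.25, 0.377), PRPF4 (-0.17, 0.589) and HNRNPC (-0.17, 0.326), each in 4 of 4 pairs, and SNRPB (-0.13, 0.582). In all, Aza was higher in all 4 pairs for 11 of the 61 genes (8.66% of all genes) and lower for 4 (9.31%). Among genes above the median level those shares were 11.3% and 12.4%. The difference was above 0 in 42 (48.6% of all genes were above 0), and the median was 0.08, against -0.01 over all genes; on the deposited scale 58 were above 0 and the median was 0.26, with 0.18 over all genes. CLK1 (0.37, limma adjusted p = 0.0467) and RBM8A (0.40, 0.0467) were called higher in Aza than in AGA as well. Neither was called between Aza and vehicle (-0.06 and -0.07).

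Some markers of cell types also differed between these treatments. The fibroblast marker DCN (1.47, limma adjusted p = 0.0162, groups without overlap) and the endothelial marker KDR (0.75, 0.0131) were called higher in Aza than in AGA. Their lists did not share 1 direction. Of the 8 fibroblast markers 5 were above 0 and 3 below, with COL1A2 at -1.12. Of the 8 endothelial and adipocyte markers 3 were above 0 and 5 below, with PECAM1 at -1.50 and VWF at -1.18. In each list 7 of 8 lay below the median gene. The summed intensity of the 8 fibroblast markers was 246.2 to 291.8 in Aza and 148.7 to 237.9 in AGA, without overlap, and 203.3 to 284.6 in vehicle; that of the 8 endothelial and adipocyte markers overlapped (270.3 to 399.5 and 180.1 to 311.7). Of the 8 mammary epithelial markers measured, 7 were lower in value in Aza than in AGA and KRT19 was at the floor, with 0 called by limma (adjusted p 0.188 and above; 3 at an unadjusted p under 0.05) and overlapping sums (9070 to 14312 and 13351 to 15971). Between AGA and vehicle, 6 of these 8 were above 0 and 0 were called by limma (3 at an unadjusted p under 0.05). The part of these markers in the values of HNRNPA2B1 and the other members was not tested.

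**Figure D4:**
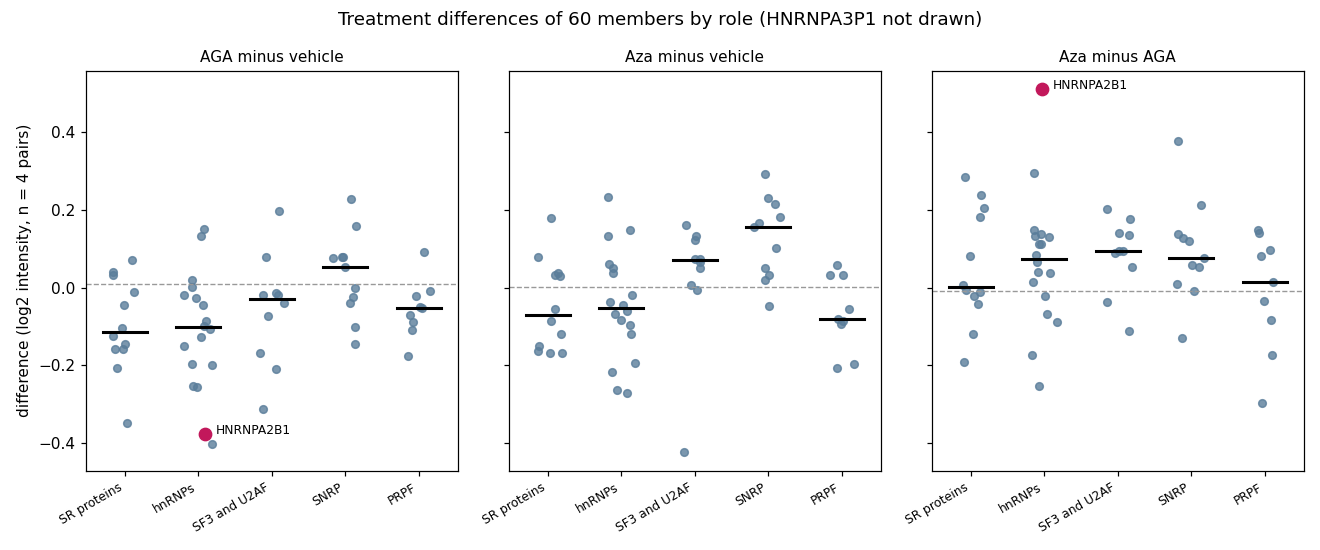
Log2 difference of 60 genes between treatments, by role, 1 point per gene; black bars are medians, dashed lines the medians of all genes, and HNRNPA3P1 is not drawn. HNRNPA2B1 (-0.38 in AGA against vehicle, 0.51 in Aza against AGA) is the 1 gene past the limma threshold, and the SNRP median is 0.16 in Aza against vehicle.

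Over the 60 genes above the median level, the differences of AGA and Aza from vehicle and from each other lay between -0.42 and 0.51, while replicate 4 differed from the others by -0.76 to 1.11. PNISR, for example, ranged over 7.71 to 9.12 on the 12 arrays, with group means of 8.25 ± 0.60 in vehicle, 8.12 ± 0.61 in AGA and 8.32 ± 0.51 in Aza (SD, n = 4). Over all genes, at any level, the treatment differences ran from -3.05 to 4.00 and those of replicate 4 from -5.58 to 6.71. The wider range of replicate 4 was thus not particular to these genes. It also sets 1 replicate number against 3, whereas the treatments were compared over 4 pairs.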

How the data were processed

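RNA from 12 cultures was hybridised to 12 single-colour Affymetrix arrays, 1 sample per array. The authors deposited 1 linear intensity for each probe set, made with GCOS, the Affymetrix operating software, per the submitters' processing notes; its algorithm and scaling are not given in the sources used here, detection calls were not used, and precision is limited by how many arrays there are. Values under 1 were set to 1, log2 was taken and arrays were quantile normalized. Of 22277 probe sets, 62 controls were left out; of the 22215 tested, 19064 had 1 gene symbol, 1043 several and 2108 none, from the platform annotation. SRSF2, SRSF9 and HNRNPH2 were only on probe sets with several symbols. Of the brightest probe sets, 9 carry the suffix for possible cross-hybridisation.

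limma 3.58.1 in R 4.3.3 fitted group plus replicate number with an intensity trend and robust variances (two-sided, Benjamini-Hochberg over all 22215 probe sets, threshold 0.05). Replicate 4 was set against 1 to 3 on 4 columns, each the mean of 3 arrays. The fits were run on simulated data to check that differences added there were returned at their size. That check does not cover the choice of replicate 4 after its values were known. Same-numbered arrays of different groups deviated together (correlation over 0.1) in 12 of 12 pairs over the 61 genes (0.413 to 0.829) and over probe sets above the median (0.368 to 0.781), and in 6 of 12 over all probe sets. For arrays with different numbers the correlations were -0.716 to 0.474, -0.508 to 0.181 and -0.135 to 0.029, in that order. Over the 61 genes the highest of these exceeded the lowest same-numbered value, so the ranges overlapped there. The pairing comes from these data, and the labels give only the numbers. The members, the lists and the split of replicate 4 from replicates 1 to 3 were chosen with earlier results of these data known. Named were members past the threshold, otherwise the 5 lowest p in each direction, with SRSF11 and PNISR throughout; of other genes, those past the threshold.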

Additional observations from a re-analysis of the deposited data

Results flagged for a closer look

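Levels of the 28 named genes were checked in each group of 4 arrays for a sample far from the rest, by its gap to the nearest array over the whole range of the group (a Dixon ratio). Of 84 checks, 8 exceeded the critical value, where chance gives about 1 in 20; several of these genes were named for their difference in replicate 4, so the count is a description. In AGA, replicate 4 was high for HNRNPA3 (9.04 against 8.55 for the nearest, ratio 0.911), HNRNPH1 (12.33 against 11.93, 0.882) and PNISR (9.03 against 7.87, 0.876). Replicate 4 was high for SRSF4 in vehicle (8.68 against 8.04, 0.850) and for PRPF6 in Aza (8.48 against 7.52, 0.946). The others were HNRNPK in AGA, low in replicate 3 (9.99 against 10.33, 0.971), SNRPD2 in AGA, low in replicate 1 (11.48 against 11.61, 0.842), and HNRNPA3P1 in Aza, low in replicate 2 (1.20 against 3.51, 0.872). The effects of Aza and of AGA on HNRNPA2B1 differed by 0.51 by a direct test, the comparison of Aza with AGA (limma adjusted p = 0.00447).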

How the results depend on the processing

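The intensity scale, the replicate block and the number of replicates limit what can be said. Without the replicate block 0 members were called lower in AGA and 0 higher in Aza against AGA; with 12 arrays as separate samples and no replicate block, replicate 4 had 22 called higher and 8 lower, and with a random replicate block 20 and 6. Without trend and robust variances, and with a floor of 16, all these counts were 0. On the deposited scale AGA had 3 called lower (HNRNPA2B1, HNRNPA3 and SRSF11) with a member median of -0.30, Aza a median of -0.048, Aza against AGA 0.26 and replicate 4 a median of 0.081 with 1 called higher (PNISR); SNRPB (-0.00807), SNRPD2 (-0.0020), SF3B5 (-0.048), HNRNPA1 (-0.077) and PRPF19 (-0.16) reversed in AGA, and SNRPB (0.068) and PRPF4 (0.030) in Aza against AGA. There AGA had 322 probe sets called, 11 of them higher, against 156 and 86 after normalization; replicate 4 had 919 and 173, against 735 and 271; Aza against AGA had 159 and 142, against 189 and 104. Median-centred arrays gave AGA 0 called and a median of -0.018, and replicate 4 1 higher, 0 lower and 0.20. A floor of 16 gave replicate 4 a median of 0.21. Averaging a gene's probe sets gave AGA 0 called and -0.020, replicate 4 1 higher, 0 lower and 0.14, and SRSF1 -0.14 in Aza against AGA. With probe sets above the median only, 2 members were higher in Aza against AGA (HNRNPR besides HNRNPA2B1) and 4 in replicate 4 (SRSF4 and HNRNPH1 besides PNISR and SRSF5). Without the vehicle arrays replicate 4 had 1 higher, 0 lower and a median of 0.17; without the Aza arrays 0 lower and 0.27.

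Leaving out 1 array or replicate number gave 0 to 1 members called lower in AGA, 0 to 1 higher in Aza against AGA, and 0 and 0 in replicate 4. Medians ran from -0.077 to -0.036 in AGA, -0.019 to 0.029 in Aza, 0.052 to 0.082 in Aza against AGA and 0.18 to 0.27 in replicate 4. PRPF19 in AGA ran from -0.0078, without AGA 2, to 0.15, and SRSF11 in Aza from -0.32 to 0.070, above 0 without Aza 1 or replicate 1 (0.043). Over all probe sets, leaving out 1 array or replicate number gave 10 to 231 calls in AGA and 33 to 234 in Aza against AGA, both lowest without replicate 3 and highest without AGA 1, 0 to 7 in Aza and 0 to 63 in replicate 4, so the shares of all genes beside the member counts move with them. The causes were not tested.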
